A study of Mus musculus with 6 samples.

Results

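The genes described here are 10 smooth muscle contractile genes, *Acta2*, *Myh11*, *Tagln*, *Cnn1*, *Mylk*, *Actg2*, *Myl9*, *Lmod1*, *Tpm2* and *Oxtr*, which basal (myoepithelial) cells of the mammary gland share with smooth muscle. They were chosen by name and matched to the rows of the deposited count table through their Ensembl identifiers, which makes 10 genes of 54418 in the table. RNA was measured in mammary epithelial cells sorted by flow cytometry from female C57BL/6 mice that were 4 weeks old, with 3 wild-type mice (*Glis2*+/+) and 3 mice mutant for *Glis2* (*Glis2*-/-) and 1 library per mouse. *Glis2* encodes a zinc finger transcription factor, and no treatment or other allele is named for either genotype. The glands were dissociated overnight and the cells were stained for CD24 and CD49f, and for TER-119, CD31 and CD45 as markers of red blood, endothelial and immune cells, and the gate that gave these libraries is not stated in the labels.

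Basal cells form the outer layer of the mammary ducts and squeeze out milk when oxytocin reaches its receptor. Contraction in these cells, as in smooth muscle, starts when calcium activates myosin light chain kinase, which phosphorylates the regulatory light chain of myosin and lets myosin pull on actin. Many genes of this apparatus are switched on together by serum response factor (SRF) and its partners of the myocardin family, which bind a short DNA element called the CArG box.

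All 10 contractile genes had a higher mean level in *Glis2*-/- than in *Glis2*+/+ cells, with a median log2 fold change of 0.31 beside 0.01 for all genes. The log2 fold change was above 0 in 51.6% of all genes tested. By edgeR's test across all genes 0 of the 10 genes were called, as were 0.0% of all genes. Of the 10 genes, only *Tagln* had an adjusted p of at most 0.05 in DESeq2, among 49 genes in all. When no gene was filtered out, edgeR called only *Tagln* of the 10 genes, and 0.108% of all genes. The median of the 10 genes was 0.12 with log2(TPM + 1), where the median of all genes was −0.06. TPM also takes account of transcript length and was used as deposited, and the cause of the smaller median was not tested. *Tagln* and *Cnn1* differed most, by 1.5-fold and 1.52-fold, and the other 8 genes by 1.16-fold to 1.36-fold. For *Tagln*, *Cnn1*, *Lmod1* and *Oxtr* each *Glis2*-/- library lay above each *Glis2*+/+ library, which also held for 6.23% of all genes tested. The summed CPM of 22 other markers of basal cells was likewise higher in each *Glis2*-/- library, whereas their mean log2 CPM overlapped and with log2(TPM + 1) 11 of them were higher and 11 lower. More basal cells and more RNA per basal cell cannot be told apart in RNA pooled from many cells. Against the mean of these 22 markers, a ratio in pooled RNA, all 10 genes stayed higher, as were 29.8% of all genes. The median log2 difference was 0.14 for the 10 genes and −0.16 for all genes. Against *Krt5*, *Krt14*, *Krt17* and *Trp63*, a reference chosen after their values were seen, 6 of the 10 log2 differences were below 0 and each was smaller than its standard error. Under this reference 15.7% of all genes lay above 0, and the median was −0.09 for the 10 genes and −0.39 for all genes.

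A CArG box is 10 bases long, with CC at its 5′ end, GG at its 3′ end and 6 bases between them that are each A or T. Promoter sequences of 7 of the 10 genes were found in RefSeq (GRCm38.p6); *Myh11*, *Tagln* and *Actg2* were not matched. Within the 250 bases before the RefSeq start, the exact box occurred in 1 of the 7 windows, that of *Myl9*, and in 1.47% of all 32851 windows of the same length. With 1 other base allowed among the 6 middle bases, a form chosen after the exact search, it occurred in 2 of the 7 windows, those of *Acta2* and *Myl9*, and in 8.59% of all windows. Only the strand of the gene was searched, since a box of either form on that strand is also such a box on the other strand. The 4 matches are given 5′ to 3′ on the strand of the gene, with the box in capitals and 10 bases on each side, since they are the element through which SRF is known to act. They are matches of letters and not shown to be sites in these cells.
Myl9 exact box, chr2:156775293-156775322, plus strand: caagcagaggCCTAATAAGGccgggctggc
Myl9 box with 1 other base, chr2:156775355-156775384, plus strand: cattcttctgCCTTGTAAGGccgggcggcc
Acta2 distal box with 1 other base, chr19:34255438-34255467, minus strand: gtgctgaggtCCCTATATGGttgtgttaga
Acta2 proximal box with 1 other base, chr19:34255388-34255417, minus strand: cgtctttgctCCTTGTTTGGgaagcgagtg
The boxes of *Myl9* lay 161 to 152 and 99 to 90 bases before its RefSeq start, and those of *Acta2* 84 to 75 and 34 to 25 bases before its start.

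Total counts lay between 24996524 and 31393917 per library. The deposited counts are estimates per gene that are not scaled for depth, and they were converted here to CPM, counts scaled to a common library size, with edgeR's TMM normalization, which sets a typical gene to the same level in all libraries. Of all genes, 21236 passed edgeR's filter on low counts, the 10 contractile genes among them. *Glis2* had 21.7, 23.2 and 19.6 CPM in *Glis2*+/+ and 10.1, 17 and 16.3 CPM in *Glis2*-/- libraries, without overlap, so that its transcript was lower but not absent and the genotypes are taken from the labels. Its levels per length (TPM, which also takes account of transcript length) overlapped between the genotypes. Beyond counting noise, a typical gene varied by 37.4% between mice with the same genotype (the common coefficient of variation fitted by edgeR).

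The smooth muscle actins form the thin filament on which myosin pulls. *Acta2* (ENSMUSG00000035783, chromosome 19, 34241090 to 34255590 of GRCm38), the α actin of smooth muscle and the usual marker of myoepithelium, had 1480.0, 1162 and 1083 CPM in the *Glis2*+/+ and 1647, 1457 and 1836 CPM in the *Glis2*-/- libraries. *Glis2*+/+ replicate 1 reached into the *Glis2*-/- range, and the other *Glis2*+/+ libraries lay below all 3 *Glis2*-/- libraries. Its log2 fold change was 0.41 (± 0.13 SE, adjusted p = 0.906 by edgeR). *Actg2* (ENSMUSG00000059430, chromosome 6, 83512905 to 83536265), the γ actin of enteric smooth muscle, had 85.8, 64.8 and 83.0 CPM in *Glis2*+/+ and 99.7, 80.5 and 103 CPM in *Glis2*-/- libraries. The lowest library of each genotype was replicate 2, and the genotypes overlapped at a log2 fold change of 0.28 (± 0.15 SE, adjusted p = 0.919 by edgeR).

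Among the genes of proteins that bind the actin filament, *Tagln* and *Cnn1* differed most. *Tagln* (ENSMUSG00000032085, chromosome 9, 45929619 to 45936058), which encodes transgelin (SM22α), an early marker of smooth muscle, had 264, 228 and 256 CPM in *Glis2*+/+ and 357, 348 and 419 CPM in *Glis2*-/- libraries. The lowest *Glis2*-/- library lay well above the highest *Glis2*+/+ library, and the log2 fold change was 0.59 (± 0.11 SE). Its adjusted p was 0.849 in edgeR and 0.0267 in DESeq2 with its log2 fold change shrunk by apeglm to 0.50, below the threshold of 0.58. *Tagln* lies across from *Pcsk7* and the antisense gene *Gm48529* on the opposite strand, with overlapping exons. *Pcsk7* had 1047 to 1666 counts and *Gm48529* 149 to 288 counts per library, with its 3 highest counts in *Glis2*-/- libraries, against 6525 to 13112 for *Tagln*, and the strand setting of the counting is not stated.

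*Cnn1* (ENSMUSG00000001349, chromosome 9, 22099216 to 22109630) encodes calponin 1, which binds actin and slows the myosin motor. It had 135, 131 and 125 CPM in *Glis2*+/+ and 227, 165 and 202 CPM in *Glis2*-/- libraries. The *Glis2*+/+ libraries lay close together and the *Glis2*-/- libraries apart from each other, all 3 above the *Glis2*+/+ range, and the log2 fold change was 0.60 (± 0.13 SE, adjusted p = 0.849 by edgeR and 0.0557 by DESeq2). *Tpm2* (ENSMUSG00000028464, chromosome 4, 43514711 to 43523765), a tropomyosin that lies along the filament, had 474, 428 and 387 CPM in *Glis2*+/+ and 491, 441 and 561 CPM in *Glis2*-/- libraries. It had the smallest log2 fold change of the 10 genes, 0.21 (± 0.12 SE, adjusted p = 0.923 by edgeR), and the genotypes overlapped. *Lmod1* (ENSMUSG00000048096, chromosome 1, 135324807 to 135368065) encodes leiomodin 1, which nucleates actin filaments in smooth muscle. It stood at 49.9, 52.5 and 45.3 CPM in *Glis2*+/+ and at 56.6, 64.5 and 60.9 CPM in *Glis2*-/- libraries, without overlap but with a gap of only a few CPM, and its log2 fold change was 0.30 (± 0.11 SE, adjusted p = 0.906 by edgeR).

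**Figure D1:**
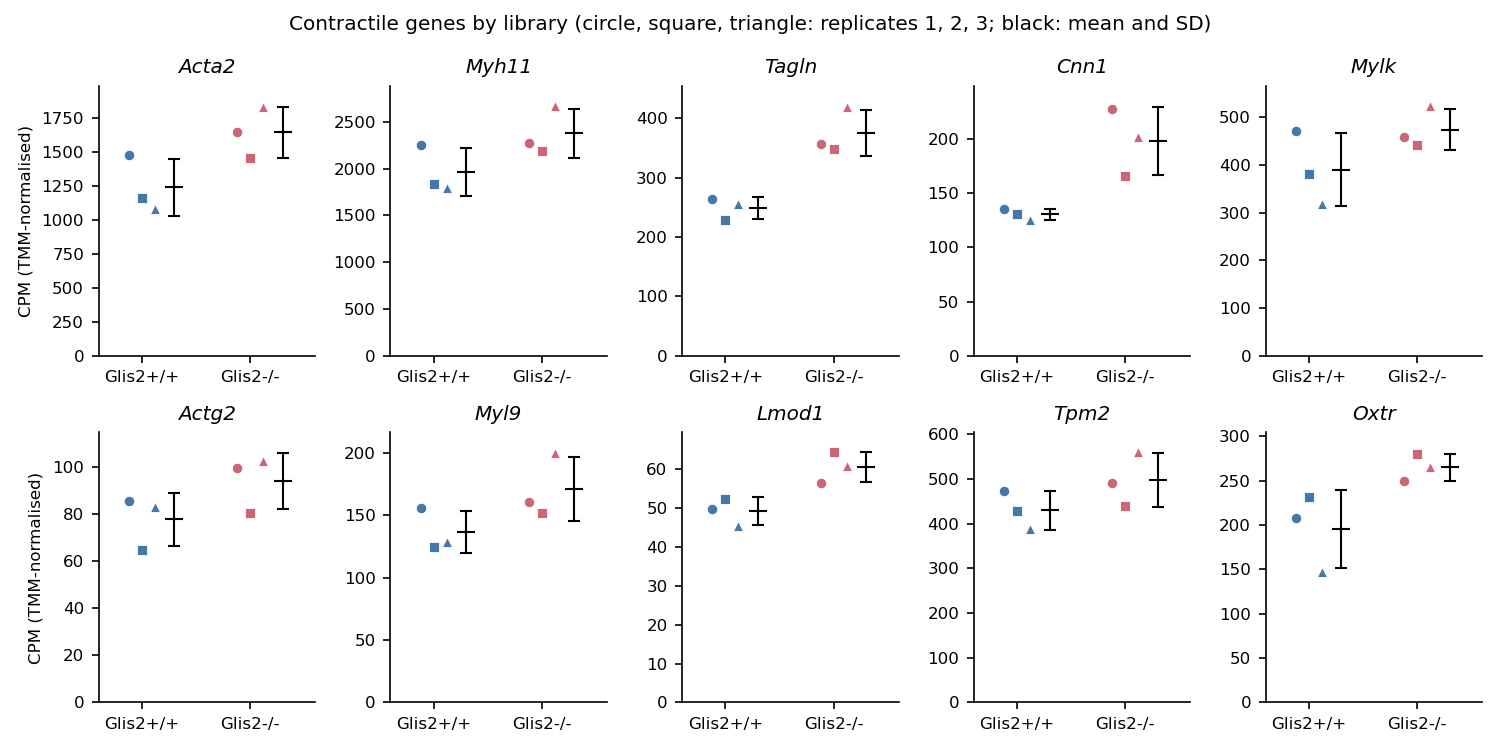
TMM-normalised CPM of the 10 contractile genes by genotype, with 1 point per library (circle, square and triangle for replicates 1, 2 and 3) and the mean and SD of 3 libraries in black. The *Glis2*-/- points of *Tagln*, *Cnn1*, *Lmod1* and *Oxtr* lie above all *Glis2*+/+ points, and for the other 6 genes at least 1 *Glis2*+/+ point reaches into the *Glis2*-/- range.

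The motor genes overlapped between the genotypes. *Myh11* (ENSMUSG00000018830, chromosome 16, 14194535 to 14291372), the myosin heavy chain of smooth muscle, had the most counts of the 10 genes, with 2256, 1839 and 1795 CPM in *Glis2*+/+ and 2270.4, 2186 and 2670.3 CPM in *Glis2*-/- libraries. *Glis2*+/+ replicate 1 lay between *Glis2*-/- replicates 1 and 2, and the log2 fold change was 0.27 (± 0.12 SE, adjusted p = 0.906 by edgeR). *Myl9* (ENSMUSG00000067818, chromosome 2, 156775420 to 156781658), the regulatory light chain that the kinase phosphorylates, had 156, 125 and 128 CPM in *Glis2*+/+ and 161, 152 and 200.1 CPM in *Glis2*-/- libraries, with a log2 fold change of 0.33 (± 0.14 SE, adjusted p = 0.906 by edgeR). Here again *Glis2*+/+ replicate 1 was the library inside the *Glis2*-/- range. *Mylk* (ENSMUSG00000022836, chromosome 16, 34745210 to 35002420), the kinase itself, had 471, 381 and 319 CPM in *Glis2*+/+ and 458, 442 and 523 CPM in *Glis2*-/- libraries. *Glis2*+/+ replicate 1 stood above *Glis2*-/- replicates 1 and 2, and the log2 fold change was 0.28 (± 0.15 SE, adjusted p = 0.919 by edgeR).

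*Oxtr* (ENSMUSG00000049112, chromosome 6, 112473683 to 112489943) encodes the oxytocin receptor, through which milk ejection is triggered. It had 208, 231 and 147 CPM in *Glis2*+/+ and 249, 280.3 and 265 CPM in *Glis2*-/- libraries. The *Glis2*-/- libraries lay close together above a wider *Glis2*+/+ range whose lowest library was replicate 3, and the log2 fold change was 0.44 (± 0.16 SE, adjusted p = 0.906 by edgeR). Without *Glis2*+/+ replicate 3 it was 0.27.

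A gene was called when its adjusted p did not exceed 0.05 (Benjamini-Hochberg over all genes tested) and its log2 fold change reached 0.58 in either direction, the thresholds of the study's methods. By edgeR's quasi-likelihood test 0 of the 10 genes were called, as were 0.0% of all genes, and 1130 genes (5.32%) had an unadjusted p under 0.05. At an unadjusted p under 0.05, 7 of the 10 genes were higher in *Glis2*-/- cells (all but *Mylk*, *Actg2* and *Tpm2*), as were 2.99% of all genes. By the same measure it was 4 of the 10 in DESeq2 (*Acta2*, *Tagln*, *Cnn1* and *Oxtr*, and 2.13% of all genes) and 1 of the 10 in limma on log2(TPM + 1) (*Tagln*, and 1.44% of all genes). In limma it was 0 of the 10 both against the 22 basal markers (1.22% of all genes) and against *Krt5*, *Krt14*, *Krt17* and *Trp63* (0.612% of all genes). The count of 10 of 10 genes higher stands beside 51.6% of all genes, and their median log2 fold change of 0.31 beside 0.01 for all genes. DESeq2 called 0 of the 10 genes and 0.121% of all genes past both thresholds, and edgeR, when no gene was filtered out, called *Tagln* (adjusted p = 0.0411) and 0.108% of all genes. The two-sided exact permutation p of each of the 4 genes without overlap was 0.1, the smallest that 3 libraries against 3 allow.

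**Figure D2:**
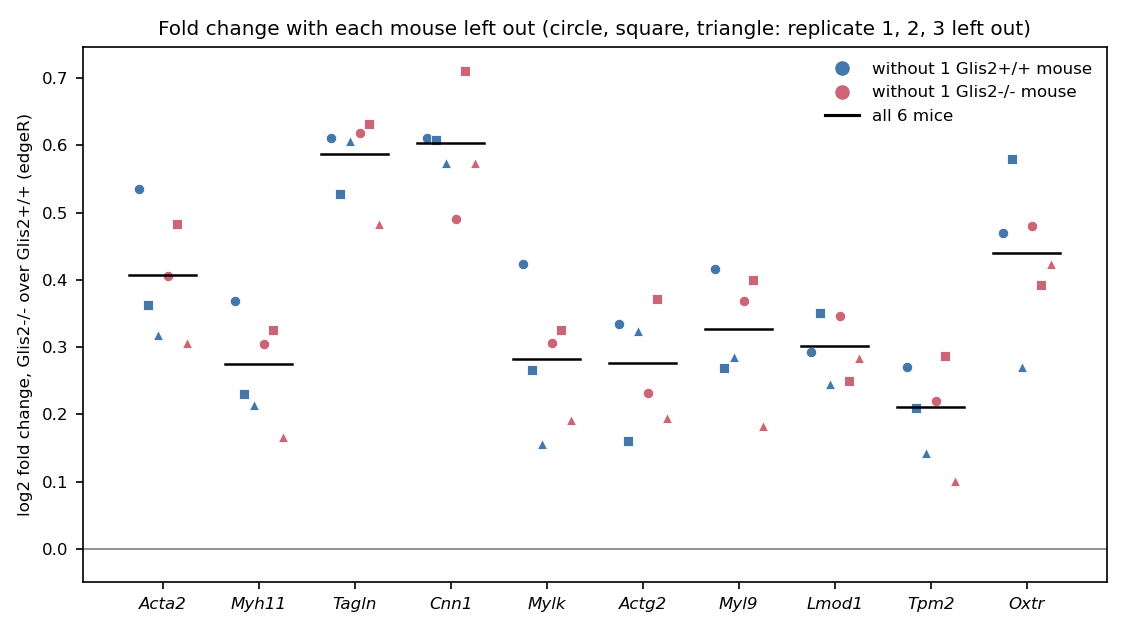
Log2 fold change (*Glis2*-/- over *Glis2*+/+, edgeR) of each contractile gene with all 6 mice (line) and after leaving out 1 mouse at a time (symbols, coloured by the genotype of that mouse and shaped by its replicate number). All symbols lie above 0, from 0.10 for *Tpm2* to 0.71 for *Cnn1*, and for *Acta2*, *Myh11*, *Mylk*, *Myl9* and *Tpm2* the values without *Glis2*+/+ replicate 1 are among the highest and those without *Glis2*-/- replicate 3 among the lowest.

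No single mouse accounted for the direction of any of the 10 genes. With each mouse left out in turn, all 10 log2 fold changes stayed above 0, and their median lay between 0.24 (without *Glis2*-/- replicate 3) and 0.42 (without *Glis2*+/+ replicate 1). The log2 fold change of *Tagln* lay between 0.48 and 0.63 and that of *Cnn1* between 0.49 and 0.71. For the genes with small differences 1 mouse mattered more: *Mylk* moved to 0.16 without *Glis2*+/+ replicate 3, *Actg2* to 0.16 without *Glis2*+/+ replicate 2, and *Tpm2*, *Myh11* and *Myl9* to 0.10, 0.17 and 0.18 without *Glis2*-/- replicate 3.

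The profiles of the 10 genes over the 6 libraries were then compared with their average. Averaged over the 10 genes, the log2 CPM centred on each gene's mean was −0.03, −0.22 and −0.31 in the *Glis2*+/+ and 0.17, 0.08 and 0.31 in the *Glis2*-/- libraries. *Myh11*, *Acta2* and *Myl9* followed this average most closely, with root-mean-square distances of 0.064, 0.067 and 0.076 on the log2 scale over the 6 libraries, and *Cnn1* and *Oxtr* least, with 0.17 and 0.20. Among 9979 other protein-coding genes with a mean log2 CPM of at least 3, those nearest to the average were *Naa38* (0.033), *Tnik* (0.049), *Myl6* (0.056), *Csnk1g3* (0.059) and *Selenow* (0.063), where a gene with no variation would stand at 0.21. *Myl6*, which encodes an essential light chain of myosin, had 349, 309 and 307 CPM in *Glis2*+/+ and 400.4, 367 and 414 CPM in *Glis2*-/- libraries. The log2 fold change of *Myl6* was 0.29 (± 0.10 SE, adjusted p = 0.906 by edgeR).

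Levels were compared between genes per length, in TPM, taken back from the deposited log2 values. *Acta2* led in each of the 6 libraries with 152 to 207 TPM, followed in each by *Tpm2* with 83.2 to 111 TPM. *Tagln* (52.3 to 89.5 TPM) and *Myh11* (66.6 to 84.0 TPM) exchanged ranks 3 and 4 between libraries, and *Cnn1* (30.4 to 56.0 TPM), *Myl9* (37.8 to 52.0 TPM) and *Mylk* (29.7 to 39.3 TPM) shared ranks 5 to 7 with overlapping ranges. *Actg2* (13.3 to 20.0 TPM), *Oxtr* (8.48 to 13.2 TPM) and *Lmod1* (2.80 to 3.36 TPM) held ranks 8, 9 and 10 in all libraries. In TPM only *Oxtr* kept its separation, with 8.48 to 12.4 TPM in *Glis2*+/+ and 12.5 to 13.2 TPM in *Glis2*-/- libraries, and *Tagln* overlapped, with 61.4 TPM in *Glis2*-/- replicate 2 against 62.6 TPM in *Glis2*+/+ replicate 3. *Gm23935*, annotated as a microRNA gene, held 83.0% to 85.7% of the TPM of a library and 3.09% to 3.92% of its counts, so that a shift in this 1 gene moves every other TPM value. On the log2(TPM + 1) scale the log2 differences in limma were 0.40 for *Tagln*, 0.38 for *Cnn1*, 0.28 for *Oxtr*, 0.22 for *Acta2* and 0.15 for *Myl9*. They were 0.10 for *Myh11*, 0.095 for *Actg2*, 0.094 for *Lmod1*, 0.075 for *Mylk* and 0.021 for *Tpm2*.

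Though it can change with the makeup of the sorted cells, a share within a protein family does not depend on how libraries are scaled. Of the contractile genes, 9 were therefore set against their relatives that other cells also use (*Oxtr* was not compared in this way), as a percentage of the family's summed TPM in each library. Transgelin *Tagln* held 63.4%, 54.2% and 63.5% of the family with *Tagln2* and *Tagln3* in *Glis2*+/+ and 64.4%, 68.5% and 70.8% in *Glis2*-/- libraries. The genotypes met within 1 percentage point but did not overlap, and the mean share differed by 7.55 percentage points (60.4% ± 5.33 against 67.9% ± 3.25, SD, n = 3 each, two-sided exact permutation p = 0.1). Without *Glis2*+/+ replicate 2 the difference was 4.48 percentage points. Calponin *Cnn1* held 32.9%, 40.5% and 32.9% of the family with *Cnn2* and *Cnn3* in *Glis2*+/+ and 48.9%, 43.6% and 42.6% in *Glis2*-/- libraries. Its mean share differed by 9.64 percentage points (35.4% ± 4.37 against 45.1% ± 3.38, SD, n = 3 each, two-sided exact permutation p = 0.1), without overlap. *Cnn3*, the relative with the most TPM, had 41.4 to 56.8 TPM in *Glis2*+/+ and 32.5 to 47.0 TPM in *Glis2*-/- libraries.

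*Lmod1* held 16.7% ± 1.93 of the leiomodin and tropomodulin family in *Glis2*+/+ and 22.1% ± 1.98 in *Glis2*-/- libraries, and *Tpm2* held 25.1% ± 1.01 and 27.9% ± 1.05 of the tropomyosins (SD, n = 3 each, two-sided exact permutation p = 0.1 for each), in both without overlap. The tropomyosin *Tpm3*, found in most cells, had 92.2 to 112 TPM in *Glis2*+/+ and 67.2 to 79.4 TPM in *Glis2*-/- libraries, whereas in CPM its log2 fold change was −0.11 (± 0.10 SE, adjusted p = 0.946 by edgeR) and the genotypes overlapped. The shares of *Acta2* and *Actg2* among the actins (19.1% ± 1.32 and 21.9% ± 1.72), of *Myh11* among the class II myosin heavy chains (30.9% ± 0.79 and 32.3% ± 1.62) and of *Myl9* among the regulatory light chains (30.6% ± 2.87 and 35.5% ± 3.93) had higher means in *Glis2*-/- libraries (SD, n = 3 each), with overlap. *Mylk* held 99.8% to 99.9% of the myosin light chain kinases on average in both genotypes. After Benjamini-Hochberg adjustment over the 8 families the smallest exact permutation p was 0.20, and with 3 libraries against 3 no share could have passed 0.05. As shares of summed counts, the actins and *Myh11* did not overlap either, and *Lmod1* did.

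**Figure D3:**
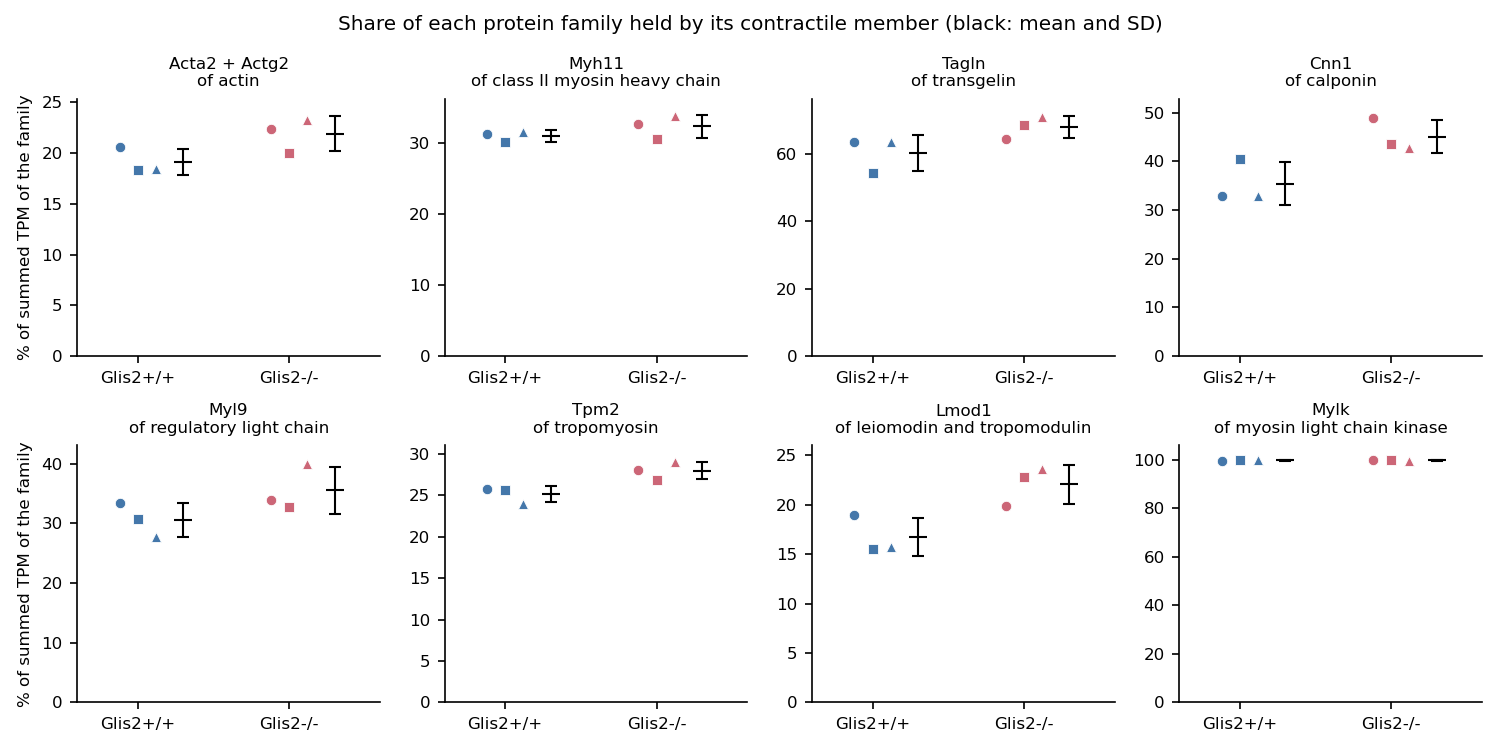
Share of the summed TPM of each protein family held by its contractile gene or genes, with 1 point per library (circle, square and triangle for replicates 1, 2 and 3) and the mean and SD of 3 libraries in black. The *Glis2*-/- points lie above all *Glis2*+/+ points for *Tagln*, *Cnn1*, *Tpm2* and *Lmod1*, and *Mylk* is near 100% in every library.

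The other genes of the contractile apparatus were followed in 4 lists, of which 0 genes were called by edgeR. Of 20 partners of the thin filament, 18 were higher and 2 lower in *Glis2*-/- cells, with a median log2 fold change of 0.12. With log2(TPM + 1) in limma 10 were higher and 10 lower, with a median of −0.02 beside −0.06 for all genes. Against the 22 basal markers in limma 7 were higher and 13 lower, where 29.8% of all genes were higher. Their median there was −0.05 beside −0.16 for all genes. In CPM, 4 of them (*Smtn*, *Csrp1*, *Lpp* and *Synm*) lay above *Glis2*+/+ without overlap, as did 6.23% of all genes, and the 18 of 20 higher stand beside 51.6% of all genes. *Csrp1*, a LIM protein of the actin cytoskeleton, had 426, 433 and 409 CPM in *Glis2*+/+ and 552, 578 and 585 CPM in *Glis2*-/- libraries. The libraries of each genotype lay close together and apart from those of the other, at a log2 fold change of 0.44 (± 0.08 SE, adjusted p = 0.849 by edgeR and 0.0987 by DESeq2). *Smtn*, which encodes smoothelin, and *Synm*, which encodes the intermediate filament protein synemin, had log2 fold changes of 0.31 (± 0.11 SE) and 0.50 (± 0.17 SE), both at an edgeR adjusted p of 0.906.

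Of 16 genes that set myosin phosphorylation, 4 were higher and 12 lower in *Glis2*-/- cells, with a median log2 fold change of −0.06. With log2(TPM + 1) and against the basal markers 1 was higher and 15 were lower, with medians of −0.19 and −0.24 beside −0.06 and −0.16 for all genes. Against the basal markers 29.8% of all genes were higher. *Ppp1r12c*, a targeting subunit of myosin phosphatase, lay below *Glis2*+/+ without overlap, as did 5.5% of all genes. *Ppp1r12c* had 105, 106 and 102 CPM in *Glis2*+/+ and 87.7, 88.9 and 98.2 CPM in *Glis2*-/- libraries, a log2 fold change of −0.19 (± 0.10 SE, adjusted p = 0.910 by edgeR). *Ppp1r14a*, which encodes the phosphatase inhibitor CPI-17, had a log2 fold change of −0.46 (± 0.29 SE, adjusted p = 0.940 by edgeR).

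Of 12 genes of SRF control, 9 were higher and 3 lower, with a median log2 fold change of 0.11. With log2(TPM + 1) 3 were higher and 9 lower, with a median of −0.10 beside −0.06 for all genes. Against the basal markers 5 were higher and 7 lower, where 29.8% of all genes were higher. Their median there was −0.06 beside −0.16 for all genes. *Srf* itself had a log2 fold change of 0.22 (± 0.12 SE), and its partners *Mrtfa* and *Mrtfb* of 0.25 (± 0.13 SE) and 0.19 (± 0.10 SE), with adjusted p values of 0.919 to 0.921 by edgeR. *Mrtfb*, *Foxo4* and *Yap1* lay above *Glis2*+/+ in CPM without overlap, as did 6.23% of all genes, but in TPM *Yap1* lay below it. *Myocd*, the myocardin gene of vascular and visceral smooth muscle, stood at 4.70, 1.68 and 5.33 CPM in *Glis2*+/+ and at 0.480, 2.70 and 2.75 CPM in *Glis2*-/- libraries, with overlap. Its log2 fold change was −0.97 (± 0.67 SE, adjusted p = 0.941 by edgeR), and in TPM it lay below *Glis2*+/+ without overlap, with 0.327, 0.309 and 0.801 TPM in *Glis2*+/+ and 0.0226, 0.103 and 0.218 TPM in *Glis2*-/- libraries.

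Of 19 genes of oxytocin receptor signalling, 7 were higher and 12 lower, with a median log2 fold change of −0.02. With log2(TPM + 1) and against the basal markers 3 were higher and 16 lower, with medians of −0.17 and −0.20 beside −0.06 and −0.16 for all genes. Against the basal markers 29.8% of all genes were higher. *Kcnmb1*, the β1 subunit of the calcium-activated potassium channel of smooth muscle, had the largest difference of the 4 lists among genes without overlap, with 12.9, 11.3 and 10.1 CPM in *Glis2*+/+ and 23.5, 16.2 and 23.6 CPM in *Glis2*-/- libraries. Its log2 fold change was 0.88 (± 0.21 SE, adjusted p = 0.906 by edgeR and 0.0987 by DESeq2). *Kcnma1*, the pore of the same channel, had a log2 fold change of 0.60 (± 0.29 SE, adjusted p = 0.906 by edgeR), with overlap. The relatives outside smooth muscle that share the families of the 10 genes had a median log2 fold change of −0.11, with 6 higher and 15 lower of 21 tested, and *Actg1*, the cytoplasmic γ actin, was the 1 of the 21 that lay above *Glis2*+/+ without overlap (6.23% of all genes), with a log2 fold change of 0.16 (± 0.08 SE).

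The 10 genes are also expressed in vascular smooth muscle and pericytes, and the makeup of the sorted cells was followed by markers. Basal cells were present by their defining markers, with a mean log2 CPM of 7.83 to 8.74 over *Krt5*, *Krt14*, *Krt17* and *Trp63* per library. The 22 basal markers, which hold no contractile gene and of which none was at 0 in every library, summed to 10847 to 11660 CPM in *Glis2*+/+ and 11849 to 12817 CPM in *Glis2*-/- libraries, with 18 higher and 4 lower. The median of their log2 fold changes was 0.19. With log2(TPM + 1) in limma 11 of the 22 were higher and 11 lower, with a median of 0.01, where the median of all genes was −0.06. The 16 markers of vascular smooth muscle and pericytes summed to 413 to 736 CPM in *Glis2*+/+ and 408 to 565 CPM in *Glis2*-/- libraries, with 2 higher and 14 lower and none at 0 in every library. *Rgs5*, a leading marker of pericytes, had 177, 42.5 and 123 CPM in *Glis2*+/+ and 82.1, 63.3 and 161 CPM in *Glis2*-/- libraries, and *Notch3* lay below *Glis2*+/+ without overlap, at a log2 fold change of −0.38 (± 0.12 SE, adjusted p = 0.906 by edgeR).

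Markers of luminal cells (5672 to 9481 CPM in *Glis2*+/+ and 5621 to 9941 CPM in *Glis2*-/- libraries), fibroblasts (2618 to 8416 and 2868 to 6428 CPM), endothelium (215 to 1069 and 318 to 1050 CPM), skeletal muscle (17.9 to 82.5 and 25.5 to 33.0 CPM) and adipocytes (107 to 548 and 145 to 413 CPM) varied widely between mice and overlapped. *Glis2*+/+ replicate 2 was lowest in the fibroblast, endothelial, skeletal muscle and adipocyte markers. The 16 immune markers, few in number of reads, summed to 35.5 to 76.2 CPM in *Glis2*+/+ and 84.0 to 149 CPM in *Glis2*-/- libraries, without overlap, with 12 higher and 2 lower of 14 tested. The part of these cells in the levels of the contractile genes was not tested.

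**Figure D4:**
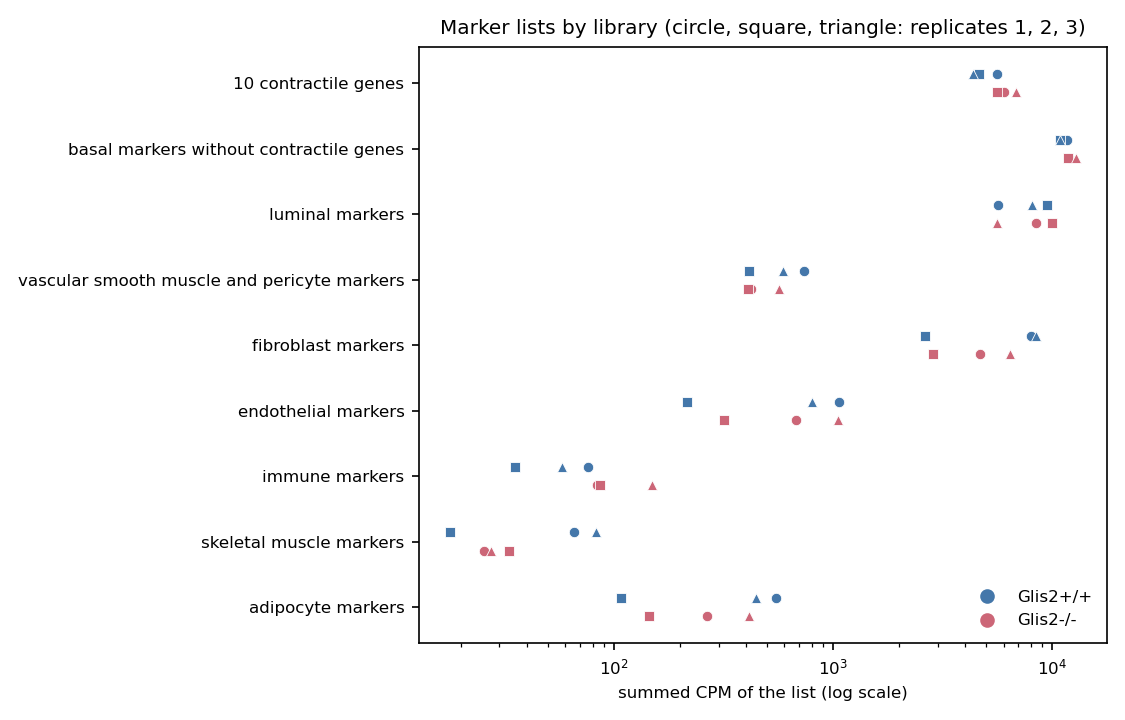
Summed CPM (log axis) of the 10 contractile genes and of 8 marker lists, with 1 symbol per library (circle, square and triangle for replicates 1, 2 and 3) and *Glis2*+/+ drawn above *Glis2*-/-. The contractile genes (4370 to 5580 CPM in *Glis2*+/+, 5616 to 6841 CPM in *Glis2*-/-), the basal markers and the immune markers do not overlap between the genotypes, and the other 6 lists do.

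Contractile genes were then set against reference markers, as the log2 level of each gene minus the mean log2 level of the markers in the same library. This is a ratio in pooled RNA and not a measurement within basal cells. The mean of the 22 basal markers differed by 0.18 on the log2 scale between the genotypes, with overlap. It was lowest in *Glis2*+/+ replicate 2 (7.51), where the mean of *Krt5*, *Krt14*, *Krt17* and *Trp63* was the highest of the *Glis2*+/+ libraries (8.40). *Sparc* and *Vcan*, which are among the 22 markers, were also lowest there (613 and 424 CPM), as were the fibroblast markers. The part of other cells in this reference was not tested. Against this reference all 10 genes stayed higher in *Glis2*-/- cells, as were 29.8% of all genes, with a median log2 difference of 0.14, where the median of all genes was −0.16. *Acta2*, *Tagln*, *Cnn1* and *Myl9* lay above *Glis2*+/+ without overlap, as did 2.24% of all genes. *Tagln* differed by 0.41 (± 0.21 SE) and *Cnn1* by 0.41 (± 0.22 SE), *Oxtr* by 0.29, *Acta2* by 0.24 and *Myl9* by 0.15, the other 5 genes by 0.033 (*Tpm2*) to 0.12 (*Lmod1*), and the adjusted p of the 10 genes was at least 0.952 in limma.

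*Krt5*, *Krt14*, *Krt17* and *Trp63*, the keratins and the transcription factor by which basal cells are best known, had a mean log2 level that was 0.40 higher in *Glis2*-/- libraries, close to the 0.37 of the 10 contractile genes. Against these 4 genes, a reference chosen after their values were seen, *Acta2* (0.011), *Tagln* (0.18), *Cnn1* (0.19) and *Oxtr* (0.06) had log2 differences above 0, as did 15.7% of all genes. *Myh11* (−0.13), *Mylk* (−0.11), *Actg2* (−0.12), *Myl9* (−0.08), *Lmod1* (−0.10) and *Tpm2* (−0.19) had log2 differences below 0. Each difference was smaller than its standard error, all 10 genes overlapped, and the adjusted p was at least 0.643 in limma. The median of the 10 genes was −0.09, where the median of all genes was −0.39, and 0.904% of all genes lay above *Glis2*+/+ without overlap.

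**Figure D5:**
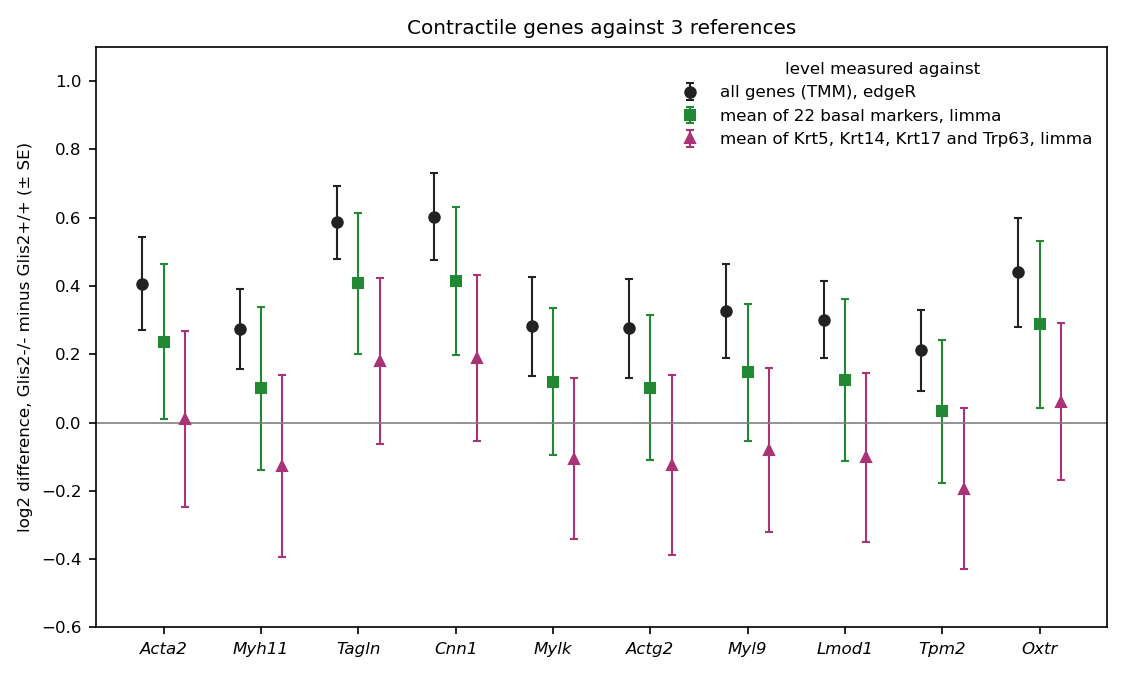
Log2 difference (*Glis2*-/- minus *Glis2*+/+, ± standard error) of the 10 contractile genes against 3 references, namely all genes (TMM, edgeR), the mean of 22 basal markers (limma) and the mean of *Krt5*, *Krt14*, *Krt17* and *Trp63* (limma). The values lie above 0 for all genes and for the basal markers, and on both sides of 0 against the 4 keratin and *Trp63* genes, with *Tagln* and *Cnn1* highest against each reference.

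Few sequences of the 10 genes occurred in transcripts of other genes. Of the 40-base words in their transcripts, 0.788% of *Acta2* were shared with the pseudogene *Actg-ps1* and 0.692% of *Myh11* with *Myh9*, and none of the words of the other 8 genes occurred in another gene. The words were compared on the strand of each transcript, so that reads from opposite-strand genes with overlapping exons, as at *Tagln* and *Mylk*, are not covered. The antisense genes at *Mylk* had at most 6 counts in any library.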

How the data were processed

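RNA-seq libraries were prepared by the study from total RNA of sorted cells with a stranded kit that depletes ribosomal RNA. The authors estimated counts with Salmon 1.2.1 on a transcriptome of mm10 with the genome as decoy and summed them per gene with tximport, and the deposited estimated counts are whole numbers without scaling. The deposited log2 values are log2(TPM + 1). Of 54418 identifiers, 54166 were matched to a GRCm38 annotation. In R 4.3.3, edgeR 4.0.16 compared the counts by its quasi-likelihood F test, using filterByExpr, TMM and Benjamini-Hochberg adjustment, without a replicate block. Alternatives used DESeq2 1.42.0 (the study's test) with apeglm 1.24.0 and limma 3.58.1. Family shares were compared by exact permutation tests, with the 2 identifiers of *Myl12b* summed. Libraries differed by more than sampling noise (chi-square per degree of freedom of at least 20.4).

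The 10 genes and all lists were chosen with earlier results of these data known. Other genes named are *Glis2*, relatives of the 10 genes with at least 1 TPM, *Srf*, *Myocd*, *Mrtfa* and *Mrtfb*, the 3 genes per pathway list with the smallest unadjusted p, leading markers, and the 5 nearest profiles. *Krt5*, *Krt14*, *Krt17*, *Trp63* and other genes given for their separation were chosen after their values were seen. The functions were tested on simulated data, and the study's other experiments were not used here.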

Additional observations from a re-analysis of the deposited data

How the results depend on the processing

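Each gene was compared under 17 alternatives, 1 of them chosen after seeing the data. The one without a fold threshold bears on calls only and leaves the values as they are. Of the log2 differences 6 reversed, all against *Krt5*, *Krt14*, *Krt17* and *Trp63* in limma, a reference under which the median of all genes was −0.39 and 15.7% of all genes lay above 0: *Myh11* −0.13, *Mylk* −0.11, *Actg2* −0.12, *Myl9* −0.079, *Lmod1* −0.10 and *Tpm2* −0.19. Under that reference 4 genes were higher and the median was −0.090. The median was 0.12 with log2(TPM + 1), 0.135 with log2(TPM + 0.1) and 0.136 against the basal markers, all in limma. Without a filter on low counts, 1 gene (*Tagln*) was called, with 37115 genes tested in place of 21236. The share of *Myh11* differed by 2.82 percentage points in counts. The cause was not tested.

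Leaving out each mouse gave 0 called and 10 higher genes, medians of 0.24 to 0.42, and log2 fold changes of 0.31 to 0.54 for *Acta2*, 0.17 to 0.37 for *Myh11*, 0.48 to 0.63 for *Tagln*, 0.49 to 0.71 for *Cnn1*, 0.16 to 0.42 for *Mylk*, 0.16 to 0.37 for *Actg2*, 0.18 to 0.42 for *Myl9*, 0.25 to 0.35 for *Lmod1*, 0.10 to 0.29 for *Tpm2* and 0.27 to 0.58 for *Oxtr*. Shares differed by 2.08 to 3.74 (actin), 0.641 to 2.24 (*Myh11*), 4.48 to 9.31 (*Tagln*), 7.71 to 12.2 (*Cnn1*), 2.71 to 6.37 (*Myl9*), 2.24 to 3.35 (*Tpm2*), 4.59 to 6.47 (*Lmod1*) and −0.006 to 0.14 (*Mylk*) percentage points.

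With the replicate number as a block in edgeR, 0 genes were called and 10 were higher, with a median of 0.31, and the adjusted p was 0.376 for *Tagln* and 0.528 for *Cnn1*. The labels do not say whether the numbers pair the mice. Deviations of same-numbered libraries correlated at −0.02, 0.17 and 0.02, which cannot settle this with 3 libraries per genotype. Each of the 10 genes had at least 1181 counts in every library.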
